A study of Oryza sativa with 2 samples.

Results

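The leaf transcriptome of nontransgenic rice seedlings was described from 1 RNA-seq library. Every row of the authors' gene table whose identifier does not mark a short RNA was taken, which gave 37645 of 76131 rows. The plants were Oryza sativa of the cultivar Ilmi, without a transgene, and their leaves were taken at 2 weeks of age. Seeds were germinated on Murashige and Skoog medium at 28 °C for 4 days, and the seedlings then stood 3 to a soil pot in a greenhouse. Total RNA was made into a strand-specific library for Illumina sequencing, per the labels' protocols. The study set these plants beside seedlings carrying PGD1:Roc10, whose library is not analysed here. The number of plants behind the library is not given in the sources used here, and there is no replicate, so no value below has an error and no test was made. The library held 27683296 mapped read pairs.

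A leaf fixes carbon in chloroplasts. Antenna proteins gather light for the photosystems, electron carriers pass the electrons on, and Rubisco with the other Calvin cycle enzymes turns carbon dioxide into sugar. Most of these proteins are encoded in the nucleus, many of them by small gene families whose copies can differ in level.

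Levels are in FPKM, fragments per kilobase of transcript scaled to the mapped fragments of the library, so genes of different length can be set side by side. A row at 1 FPKM or more is called detected here. By this rule 21437 rows, or 56.9%, were detected, 7370 lay between 0 and 1 FPKM and 8838 were listed at 0. The 56.9% is the background printed beside gene lists. All 5206 list members have a symbol or an informative description, and of all rows so named 62.9% were detected, so lists are read against both shares. The median level was 2.18 FPKM over all rows and 11.7 FPKM over detected rows. Reads per gene cannot be read from FPKM, which leaves the depth of a single value unknown, and a row listed at 0 is not shown to be absent.

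Few rows carried much of the signal. The 75 rows at 1000 FPKM or more held 23.2% of the summed FPKM, and 827 rows made up 50% of it. The 10 highest rows held 6.73%, the 100 highest 25.7% and the 1000 highest 52.8%. Among the 20110 rows with a symbol or an informative description, 437 rows made up 50% of their own sum. All rows analysed lie on the 12 nuclear chromosomes, so the genes of the plastid and mitochondrial genomes are not part of these sums. Chromosome 1 carried 15.3% of the summed FPKM with 13.9% of the rows, and chromosome 10 carried 3.67% with 5.60%. Detected rows made up between 45.1% of a chromosome's rows, on chromosome 11, and 64.6%, on chromosome 3.

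**Figure D1:**
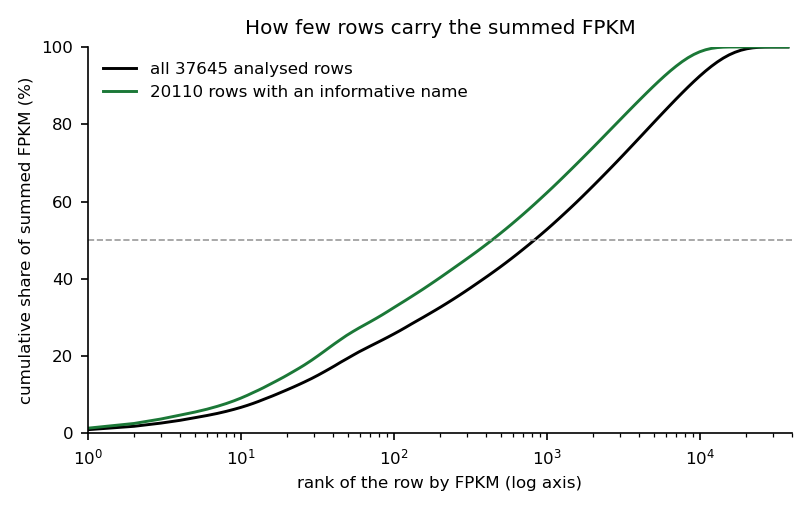
Cumulative share of the summed FPKM (y axis, percent) against the rank of the row by FPKM (x axis, log scale) in the nontransgenic leaf library. The black line covers all 37645 analysed rows and crosses the dashed 50% line at 827 rows, and the green line covers the 20110 rows with an informative name and crosses it at 437.

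The tissue label was checked against markers. Of the leaf markers, 4 of 5 genes for the Rubisco small subunit, 2 of 3 for Rubisco activase and 13 of 18 for chlorophyll a/b binding proteins were detected. Leaf marker levels in these families reached 7108, 6154 and 8255 FPKM. The fourth leaf list went the other way: 3 of 12 rows named carbonic anhydrase, the enzyme that interconverts carbon dioxide and bicarbonate, were detected, and the highest, OS02G0533300, stood at 21.1 FPKM. This count covers only rows that carry the name. OS01G0639900, described without a protein, ends 3238 bases before a row of that list and stood at 4570 FPKM. Markers of other organs were mixed. None of 30 prolamin, 7 oleosin and 3 globulin rows of the seed was detected, nor any of 6 root-specific RCc3-like rows and 13 anther rows. Of 19 glutelin rows 4 were detected, up to 25.8 FPKM for OS01G0111900. Of 44 rows in the pollen list, named for pollen proteins, allergens or profilins, 11 were detected, up to 144 FPKM for OS03G0341600. OS11G0167800, described as a desiccation-associated protein of pollen, is outside that list and stood at 2810 FPKM. Of 49 MADS-box rows 15 were detected, up to 88.7 FPKM for MADS56, and of 7 YABBY rows 3, up to 18.8 FPKM for YAB2. The MADS-box list includes flowering-time regulators known to act in leaves, MADS56 among them. Of the other root markers, NIP2-1, the silicon influx channel also known as Lsi1, was listed at 33.7 FPKM and the row described as the silicon efflux transporter at 0. Of 4 NRT2 nitrate transporter rows 2 were detected, up to 1.92 FPKM for OS01G0547600. No row was found by the name of the Casparian strip proteins, a further root marker. The xylem wall genes CESA4, CESA7 and CESA9 stood at 3.62, 3.35 and 0.744 FPKM. In bulk tissue, few cells with a high level and many cells with a low level cannot be told apart.

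Photosynthesis genes dominated the named rows. The 11 lists of photosynthesis genes together hold 150 rows, of which 120, or 80%, were detected, and they carried 15.9% of the summed FPKM. Of the 30 highest rows with an informative name 24 belong to them, and 39 of their members reached 1000 FPKM. The chlorophyll a/b binding proteins, which hold the antenna pigments, carried 4.74% of the summed FPKM. The photosystem I subunits carried 2.54%, the photosystem II subunits 2.52%, the Calvin cycle enzymes 1.51%, the Rubisco small subunit 1.51% and the photosynthetic electron carriers 1.02%. Without rows that share a locus the Calvin cycle share was 1.01%, and no Rubisco small subunit row was left.

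Among the antenna genes, CAB2R stood at 8255 FPKM, the highest level of any analysed row. RCABP89, another antenna gene, was at 4570 FPKM, and OS09G0346500, described as an LHCII type I protein, at 4516 FPKM. The minor antenna protein CP29 (OS07G0558400) was at 4390 FPKM and the photosystem I antenna row OS06G0320500 at 4335 FPKM. These 4 rows lay close together, well below CAB2R. OS11G0242800, described as ASCAB9-A, was at 4317 FPKM, and the type III rows OS07G0562700 and OS02G0197600 were at 3823 and 2980 FPKM. OS07G0577600 was at 2646 FPKM. Further down, CP24 (OS04G0457000) was at 542 FPKM, and the last of the 13 detected antenna rows, OS09G0439500, was at 33.0 FPKM. The 5 other rows lay at 0.307 FPKM (OS03G0165375) or below, and 3 of them were listed at 0. The list was thus split between rows at high levels and rows near 0, with none between 1 and 10 FPKM.

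Most photosystem I genes were close in level. Of 12 rows, 9 lay between 1610 FPKM (OS07G0435300) and 3035 FPKM (OS08G0560900, the subunit II row that binds ferredoxin). The subunit genes PSAH at 2402 FPKM and OS04G0414700, the PsaO row, at 2555 FPKM fell inside that range. So did OS12G0189400 (subunit N) at 2594 FPKM, OS12G0420400 (subunit XI) at 2493 FPKM, OS07G0148900 at 2461 FPKM, OS03G0778100 (subunit F) at 2263 FPKM and OS09G0481200 (subunit V) at 2114 FPKM. The rest of the list was far lower, with OS09G0485201 at 152 FPKM and OS04G0519975, described as subunit IX, listed at 0. The highest row held 13.95% of the list. These rows encode different subunits of 1 complex, not copies of 1 gene. Photosystem II was less even. OS08G0200300, described as the 10 kDa polypeptide, stood at 4376 FPKM, and its paralog OS07G0147500 at 1697 FPKM. The oxygen-evolving complex, which splits water, was represented by OS01G0501800 at 3864 FPKM, OS07G0141400 (the 23 kDa protein) at 3061 FPKM and OS07G0544800 (enhancer protein 3-2) at 1504 FPKM. PSBW, a small core subunit, was at 2706 FPKM. The 6 rows described by the name PsbQ were lower, from OS07G0105600 at 132 FPKM to OS05G0313100, listed at 0. The PsbS row OS01G0869800, whose protein serves in the release of excess light energy as heat, was at 1651 FPKM, and OS04G0690800, described as a 22 kDa photosystem II protein, at 56.7 FPKM. In 8 rows of these lists the description is that of a subunit usually encoded in the plastid genome. The row described as protein D1 (OS04G0473150) was at 429 FPKM on chromosome 4, and OS09G0485201, described as photosystem I subunit VII, was at 152 FPKM. Whether reads of plastid origin enter these rows was not tested. Together the 8 rows held 0.0773% of the summed FPKM.

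Of the electron carriers, PETE, the copper protein plastocyanin, stood at 3321 FPKM. ADI1, a ferredoxin, stood at 2091 FPKM, and PETC, the Rieske iron-sulfur protein of the cytochrome b6/f complex, at 1994 FPKM. Ferredoxin genes were unequal: beside ADI1, the ferredoxin row OS03G0685000 stood at 117 FPKM and OS07G0251500 was listed at 0. The leaf isozyme row of ferredoxin-NADP reductase (OS06G0107700) was at 367 FPKM. Another row described as similar to this reductase, OS02G0103800, was at 84.8 FPKM. It shares its locus with OS02G0103850, a hypothetical protein at 1017 FPKM, so reads may be divided. LIR1, a light-regulated protein known to hold the reductase at the thylakoid membrane, was at 4846 FPKM, higher than each of these rows.

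For carbon fixation, RBCS-A stood at 7108 FPKM and RBCS at 4388 FPKM, both for the small subunit of Rubisco. OS12G0292400 was at 1188 FPKM, OS12G0291400 at 231 FPKM, and OS12G0291200 was listed at 0. All 5 rows lie on chromosome 12 and 4 of them in 1 stretch, from 11262346 to 11322505 in IRGSP-1.0. Each of the 5 shares its locus with another row of the table and the copies are similar in sequence, so reads may have been divided among rows and the split between copies is uncertain. RCA, Rubisco activase, which frees the enzyme from bound sugar phosphates, stood at 6154 FPKM and held 99.4% of its list. The other activase rows were OS04G0658300 at 36.0 FPKM and OS11G0707050, listed at 0.

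Of 22 Calvin cycle rows 21 were detected. Chloroplast aldolase (OS11G0171300) was at 3626 FPKM, OS04G0459500, described as GADPH (glyceraldehyde-3-phosphate dehydrogenase), at 2560 FPKM and phosphoribulokinase (OS02G0698000) at 1123 FPKM. The CP12 row OS01G0303000, whose protein binds the last 2 enzymes, stood at 3691 FPKM, above both of them. The 3 other aldolase rows of the list were far lower, from OS12G0169600 at 144 FPKM to OS01G0118000 at 10.2 FPKM. In photorespiration, which recovers the product of Rubisco's reaction with oxygen, serine-glyoxylate aminotransferase (OS08G0502700) stood at 1769 FPKM. Glycolate oxidase rows were unequal: GLO1 was at 1337 FPKM, GLO5 at 836 FPKM, GLO4 at 51.6 FPKM and GLO3 at 5.68 FPKM. GLO1 shares its locus with another row, as do 10 of the 15 photorespiration rows in all, so reads may be divided. Among chlorophyll synthesis genes CHLP, which makes the phytol tail, was at 1208 FPKM and PORA, a protochlorophyllide reductase, at 831 FPKM. The subunits of magnesium chelatase were unequal, with CHLH at 511 FPKM, CHLI at 190 FPKM and CHLD at 42.2 FPKM. FTSH2 and FTSH1, thylakoid proteases of photosystem repair, stood at 765 and 673 FPKM, and 10 further FtsH rows were at 131 FPKM (FTSH9) or lower.

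**Figure D2:**
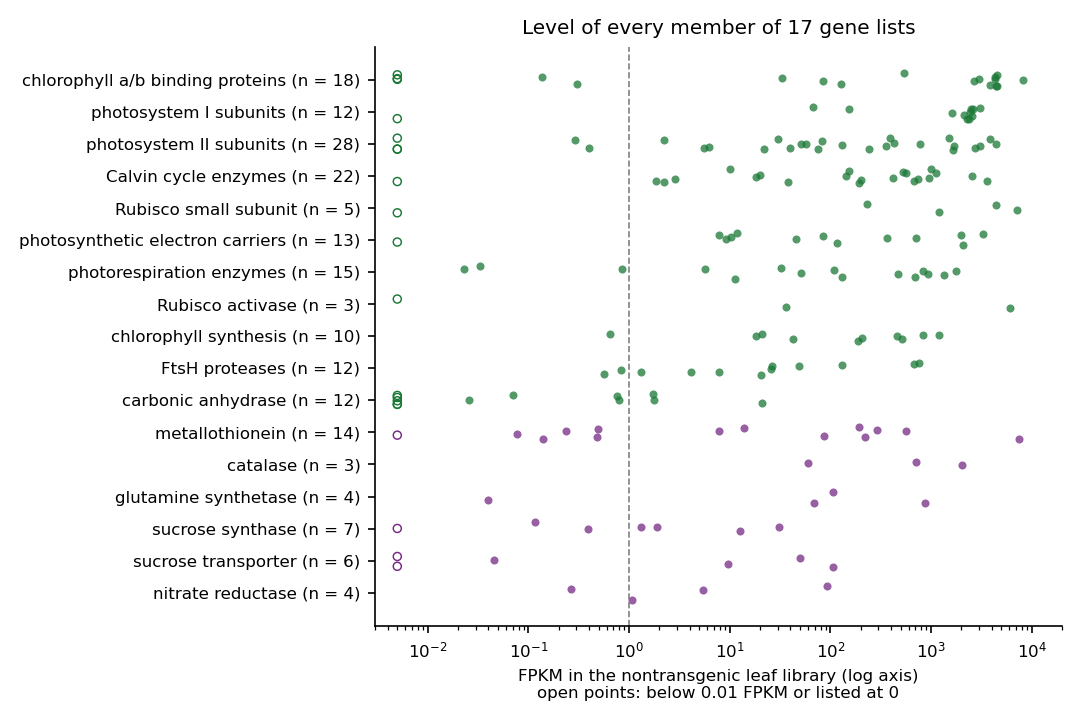
Level of each member of 17 gene lists in the nontransgenic leaf library, in FPKM on a log axis, 1 point per row, with open points for rows listed at 0 or below 0.01 FPKM and a dashed line at 1 FPKM. Of 12 photosystem I rows 9 crowd together between 1610 and 3035 FPKM, with the others far lower. Rubisco activase and metallothionein each have 1 row far above the rest.

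Outside photosynthesis, MT3A, a metallothionein (a small cysteine-rich metal-binding protein), stood at 7474 FPKM and ranked 2 over all rows. It held 84.3% of the metallothionein list and was 13.1 times the next member. That member, MT2A, was at 570 FPKM, followed by MT1A at 292 FPKM, MT2C at 222 FPKM, OS12G0570700 at 194 FPKM and MT3B at 86.5 FPKM. MT4C was at 13.9 FPKM and MT1B at 7.86 FPKM. The 6 other rows, OS12G0571000, MT4B, OS12G0567800, OS12G0568500, OS09G0244200 and MT21A, lay at 0.495 FPKM or below. Of the 30 highest named rows 6 lie outside the photosynthesis lists: MT3A, LIR1, the CP12 row, and the 3 that follow. They were OS07G0529600, described as a pathogen-induced defence-responsive protein, at 3217 FPKM, and OS11G0167800, described as a desiccation-associated protein of pollen, at 2810 FPKM. OS12G0632000, a glycine-rich RNA-binding protein, was at 2499 FPKM and held 99.5% of its list, which has 3 rows found by their wording. Just below the 30 highest, the cyclophilin row OS02G0121300, for an enzyme that turns proline bonds in proteins, was at 2403 FPKM. OS02G0818000, described as a protein induced by the brown planthopper, was at 2288 FPKM. OS03G0670700, described only as a glycine-rich protein and outside the list of OS12G0632000, was at 2261 FPKM.

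Ribosomal proteins were broadly detected, with the second highest sum of any list. Of 341 rows 310, or 90.9%, were detected, and they carried 2.65% of the summed FPKM. Their highest row, a plastid-specific 30S protein (OS03G0856500), stood at 821 FPKM and held 3.62% of the list. Among rows described as 40S or 60S, the cytosolic ribosome, 145 of 158 were detected with a median of 71.5 FPKM. Among rows described as 30S or 50S, 52 of 56 were detected with a median of 23.6 FPKM. Pentatricopeptide repeat proteins, which process organelle transcripts, were also broadly detected, at lower levels with a median of 2.44 FPKM: 231 of 318 rows were detected, and their highest row (OS04G0583101) stood at 139 FPKM.

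Rows without an informative name made up 17535 of the rows and carried 28.5% of the summed FPKM. Of these, 50.1% were detected against 62.9% of the named rows. The highest were OS08G0435900 at 5841 FPKM and OS01G0639900 at 4570 FPKM, both described only as transcripts without a protein, which ranked 5 and 7 over all rows. OS01G0639900 ends 3238 bases before OS01G0640000, a row described as carbonic anhydrase that was listed at 0. Of the 20 highest rows of this kind, 10 have the same locus as another analysed row, and several of these partners are photosynthesis genes. OS12G0274750, a hypothetical gene at 2786 FPKM, has the same locus as RBCS, and OS11G0171350, at 1133 FPKM, that of chloroplast aldolase (OS11G0171300). OS04G0457100, at 1052 FPKM, has the locus of CP24 (OS04G0457000), which was the lower of that pair at 542 FPKM. How the reads of such loci were divided is not given in the sources used here.

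Concentration was measured as the share of a list's summed FPKM held by its highest member. Over 109 lists with at least 3 members and a sum of at least 10 FPKM, the median of this share was 38.6%, and the median effective number of members (1 over the sum of squared shares) was 3.91. The highest member held 50% or more in 40 lists, 90% or more in 6 lists and under 20% in 12 lists. Long lists tend to give lower shares, so these figures describe lists of unequal size. In 19 of the 109 lists the name joins different proteins or subunits, so that the share does not describe choice among paralogs. Over the other 90 lists, a division made after seeing the data, the median share was 39.9%, and the highest member held 50% or more in 35, 90% or more in 6 and under 20% in 10.

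In all 6 lists of nitrogen assimilation the highest member held 50% or more. These lists are short, with 3 or 4 rows each apart from the 10 ammonium transporter rows. Short lists tend to give higher shares. The weakly expressed NRT2 list, with a sum of 3.72 FPKM, falls short of the 10 FPKM asked of the 109 lists above. NIA1, nitrate reductase, stood at 91.7 FPKM and held 93.1% of its list, above OS02G0770800 at 5.49 FPKM, OS08G0468700 at 1.07 FPKM and OS01G0693700 at 0.263 FPKM. Nitrite reductase rested on OS01G0357100 at 21.6 FPKM, with OS02G0765900 at 0.0433 FPKM and OS01G0357500 listed at 0. GLN2, the chloroplast glutamine synthetase, stood at 873 FPKM, or 83.2% of its list. The cytosolic GLN1-1 was at 107 FPKM, OS03G0223400, described as a root isozyme, at 68.9 FPKM, and OS03G0712800 at 0.0394 FPKM. GLU, a glutamate synthase, was at 585 FPKM beside the NADH-dependent form OS05G0555600 at 124 FPKM. Of the ammonium transporters AMT1-1 stood at 73.3 FPKM, AMT2-1 at 8.56 FPKM and AMT1-2 at 6.05 FPKM. All 10 rows of that list share their locus with another row, so reads may be divided. The NRT2 nitrate transporters, many of which take up nitrate in roots, reached 1.92 FPKM (OS01G0547600).

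In carbon metabolism, SUT1, the sucrose carrier of phloem loading, was at 106 FPKM, above OS12G0641400 at 50.2 FPKM and SUT4 at 9.69 FPKM. SUT5 was at 0.0456 FPKM, and OS10G0404500 and OS10G0404566 were listed at 0. Sucrose synthase genes, which split sucrose in sink organs, were low: SUS2 stood at 31.2 FPKM, SUS4 at 12.7 FPKM, SUS1 at 1.90 FPKM and SUS6 at 1.32 FPKM. SUS5 was at 0.395 FPKM, SUS7 at 0.117 FPKM, and SUS3 was listed at 0. Sucrose phosphate synthases, which make sucrose in source leaves, were detected in 9 of 10 rows, with SPS5 at 84.9 FPKM, SPS3 at 57.6 FPKM and SPS4 at 49.6 FPKM. Of the SWEET sugar exporters SWEET1A stood at 162 FPKM, SWEET4 at 123 FPKM and SWEET1B at 68.0 FPKM. Starch genes split by isoform. The granule-bound starch synthase row OS07G0412100 was at 293 FPKM, whereas OS06G0133000, described as granule-bound starch synthase I, the form of the endosperm, was at 0.141 FPKM. Beta-amylases, which degrade starch in leaves, were detected in 5 of 6 rows, up to 74.5 FPKM for OS03G0141200. Alpha-amylases, known from germinating seed, were detected in 2 of 11 rows, up to 9.84 FPKM for OS04G0403300.

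Catalase, ascorbate peroxidase and thioredoxin genes, which act on peroxide and redox state, were detected more widely than the background. All 3 catalase rows passed 1 FPKM, with OS03G0131200 at 2040 FPKM, CATA at 711 FPKM and CATB at 59.6 FPKM. All 10 ascorbate peroxidase rows were detected as well, led by APX2 at 571 FPKM, APX8 at 443 FPKM and APX4 at 318 FPKM. Thioredoxins, some of which switch chloroplast enzymes on in light, were detected in 36 of 41 rows. TRXM stood at 2161 FPKM, CDSP32 at 1437 FPKM and TRXH at 661 FPKM. Class III peroxidases, secreted enzymes of the cell wall, were a contrast: 38 of 133 rows were detected, and OS02G0240300 at 406 FPKM and OS01G0962700 at 250 FPKM were the highest.

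**Figure D3:**
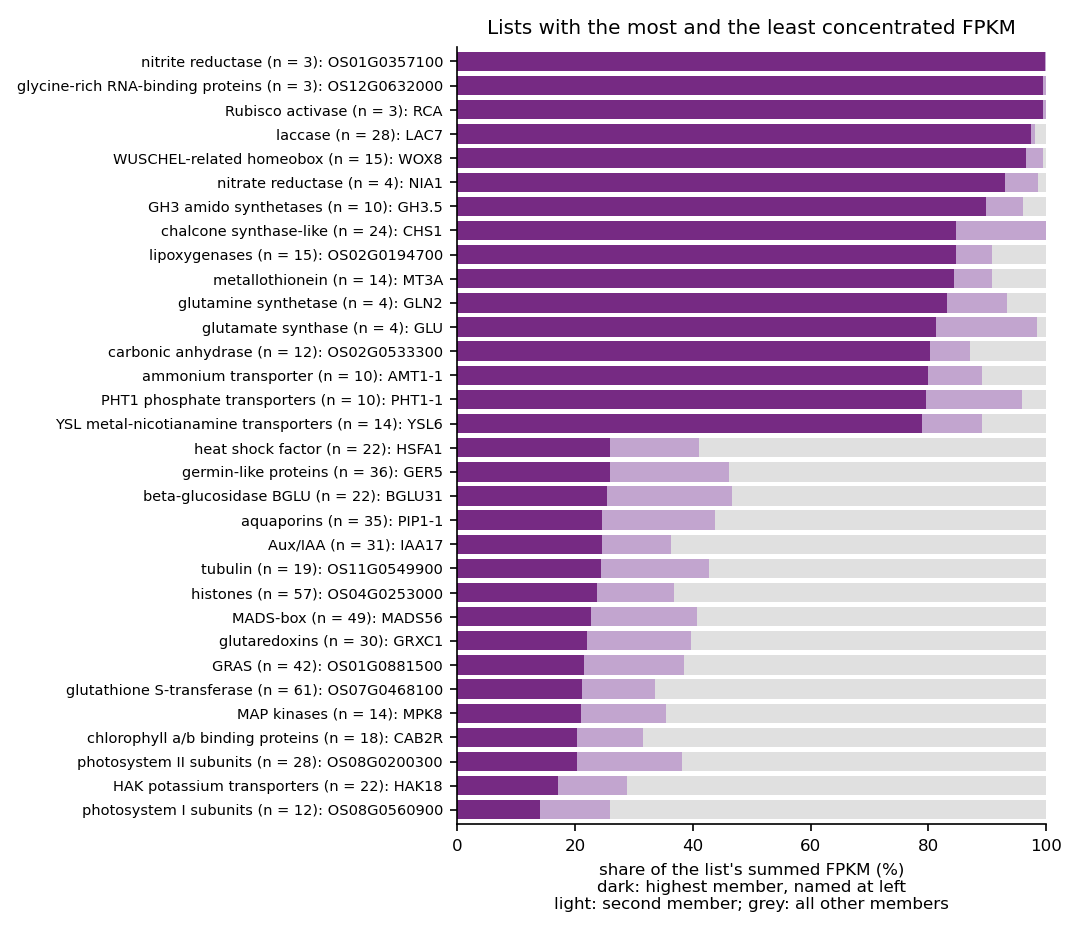
Share of a list's summed FPKM (x axis, percent) held by its highest member (dark), its second member (light) and all others (grey), for the 16 lists with the highest and the 16 with the lowest share of the highest member among lists of at most 62 rows. In Rubisco activase 1 row holds 99.4%, whereas among the HAK potassium transporters HAK18 holds 17.1%. The photosystem lists, also at the low end, join different subunits.

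Membrane channels and wall proteins were split within families. Aquaporins, the water channels, were detected in 22 of 35 rows, with PIP1-1 at 875 FPKM, TIP2-2 at 678 FPKM and TIP1-2 at 561 FPKM. All 3 PIP1 rows were detected, but only 5 of 10 TIP rows. Expansins, which loosen cell walls during growth, were detected in 15 of 59 rows. The alpha type gave 6 of 33, the beta type 4 of 19, and the expansin-like type 5 of 5. EXPB3 was the highest at 75.7 FPKM, then EXLA1 at 61.9 FPKM. Laccases, copper oxidases that polymerise lignin precursors, were detected in 1 of 28 rows: LAC7 stood at 124 FPKM and the next, LAC4, at 0.888 FPKM. Of the cellulose synthases 8 of 9 were detected, led by CESA3 at 34.3 FPKM, CESA1 at 21.5 FPKM and CESA8 at 11.05 FPKM, the primary wall set. Lipid transfer proteins, which carry cuticle lipids, were detected in 28 of 78 rows, with OS12G0115500 at 743 FPKM, LTP at 440 FPKM and OS12G0115300 at 429 FPKM. Of the YSL metal transporters YSL6 stood at 158 FPKM and held 78.9% of the list.

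Transcription factor lists were divided, with 7 of 18 above the 56.9% background and 6 above the 62.9% of named rows. WRKY factors, many of them in defence, gave 47 of 87 detected, or 54.0%, which is near the background and no result about them. NAC factors gave 35 of 70, AP2/ERF factors 45 of 90 and MYB factors 65 of 134, or 48.5%. The highest rows were OS05G0343400 (WRKY 53) at 177 FPKM, OS08G0535800 (NAC) at 229 FPKM, OS02G0752800 (AP2/ERF, dehydration-responsive) at 539 FPKM and OS10G0562100 (MYBS2-like) at 150 FPKM. CONSTANS-like and B-box factors of light and day-length responses were wider, with 22 of 24 detected and OS06G0654900 at 701 FPKM. All 6 clock-associated rows were detected. GIGANTEA (OS01G0182600) stood at 460 FPKM, PRR95 at 280 FPKM, PRR73 at 60.4 FPKM, PRR1 at 38.4 FPKM, PRR37 at 33.7 FPKM and PCL1 at 4.43 FPKM. The harvest hour, with which clock genes vary, is not given in the sources used here.

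MADS-box factors were divided, with 15 of 49 rows detected. The flowering-time regulators MADS56 and MADS50 stood at 88.7 and 70.8 FPKM and MADS22 at 45.3 FPKM. MADS1, a floret identity gene, was at 0.312 FPKM, MADS4 at 0.777 FPKM, MADS13 at 0.0460 FPKM, and MADS7 was listed at 0. MADS16, a floral organ identity gene, stood higher, at 13.5 FPKM. Of 15 WUSCHEL-related homeobox rows only WOX8 was detected, at 11.4 FPKM, and 12 were listed at 0. KNOX homeobox rows split sharply: HOS59 was at 424 FPKM, OS08G0292900 at 113 FPKM and HOS58 at 106 FPKM, and the 7 others lay at 0.512 FPKM (HOS66) or below. Cyclins, which drive the cell cycle, were detected in 9 of 35 rows, with 4 of 15 D-type, 2 of 9 B-type and 1 of 7 A-type rows. The highest was the D-type row OS03G0109700 at 61.6 FPKM.

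Neighbouring rows of a list were often unequal. Some lists join different proteins, so such neighbours are not always copies of a gene. Rows of 1 list that follow each other on a chromosome with gaps of at most 50 kb formed 234 clusters of at least 3 rows, 977 rows in all. In 71 clusters no row was detected, and in 22 every row was. Of all list members 52.5% were detected, and of all analysed rows 56.9%. These are shares of rows and not a like measure for whole clusters. Of 99 clusters with a sum of at least 10 FPKM, the highest row held 90% or more in 30, and its median share was 80.8%. The highest row alone can bring a cluster to that sum. On chromosome 7, PIP2-1 held 97.4% of a 3-row aquaporin cluster, with 283 FPKM beside 5.50 FPKM for PIP2-4. Of the rows in that cluster 2 share their locus with another row, so reads may be divided. On chromosome 1, LAC7 held 99.9% of its cluster, and HSP17.9B, a small heat shock protein at 188 FPKM, held 98.5% of a 6-row cluster. The Bowman-Birk protease inhibitors of chromosome 1 were an opposite case: all 5 rows were detected, OS01G0123900 at 253 FPKM, OS01G0124200 at 153 FPKM and the lowest, RBBI3.3, at 11.6 FPKM. A histone cluster of chromosome 1 was similar, with 5 of 5 rows detected between 23.2 and 110 FPKM (H2B.6). The largest cluster without a detected row was a run of 15 seed storage protein rows on chromosome 5, from 15330497 to 15530968, whose sum was 0.130 FPKM.

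**Figure D4:**
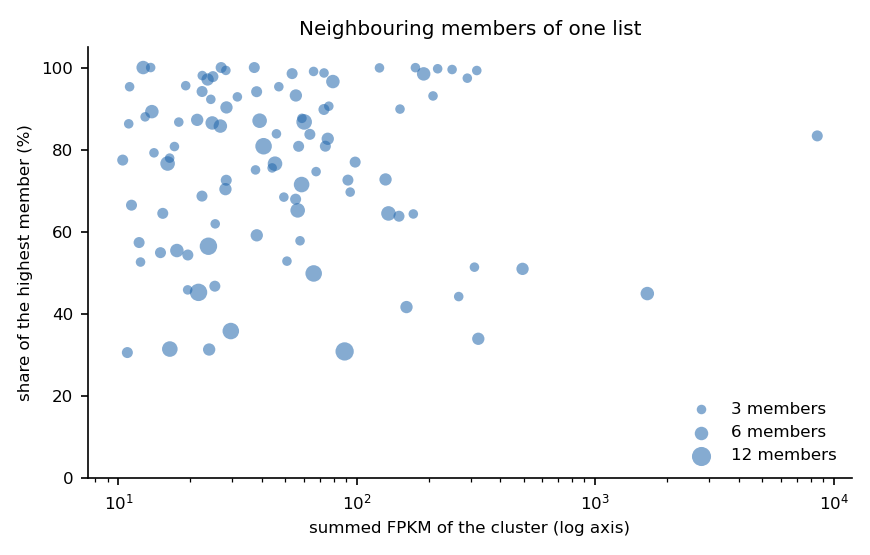
Share of the highest row (y axis, percent) against the summed FPKM of the cluster (x axis, log scale) for the 99 clusters of neighbouring rows of 1 list with a sum of at least 10 FPKM, with point area growing with the number of rows. The Rubisco small subunit cluster lies far to the right at 8527 FPKM with RBCS-A at 83.4%.

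Silent families were read against the 56.9% background. In 16 of 113 lists the detected share was under 28.5%, 50% of that background. Against 31.4%, 50% of the share of named rows, the count was 22, a limit added after seeing the data. The 6 further lists were the class III peroxidases, MADS-box, KNOX, PHT1 phosphate transporter, PIN auxin efflux and terpene synthase lists. Just inside the lower limit were the SAUR proteins with 28.1%, and just outside it the class III peroxidases with 28.6%. The laccase, expansin, WUSCHEL-related, cyclin, carbonic anhydrase, alpha-amylase and pollen lists given above were among the 16, and the others follow. The carbonic anhydrase count covers rows that carry that name. Whether OS01G0639900, at 4570 FPKM without a protein in its description, is part of the neighbouring carbonic anhydrase gene is not given in the sources used here, and its level is not in that count. Seed storage proteins were detected in 4 of 55 rows, oleosins in 0 of 7 (OLE18 was the highest at 0.182 FPKM) and root-specific RCc3-like proteins in 0 of 6 (OS10G0551800 at 0.257 FPKM). Among the pollen rows given above, OS03G0341600 is named only for a domain known from a pollen allergen, and the profilin row OS06G0152100 stood at 141 FPKM. The pollen count leaves out OS11G0167800, described as a desiccation-associated protein of pollen, at 2810 FPKM. Pectinesterases and their inhibitors, which set pectin stiffness, were detected in 9 of 67 rows, up to 43.1 FPKM for OS10G0508700. Chalcone synthase-like rows, whose founding enzyme starts flavonoid synthesis, were detected in 2 of 24 rows, CHS1 at 12.7 FPKM and OS04G0167800, described as a chalcone reductase homologue, at 2.29 FPKM, and the other 22 were listed at 0. Germin-like proteins gave 10 of 36, up to 34.4 FPKM for GER5. SAUR auxin-response proteins gave 9 of 32, yet OS10G0510500 among them stood at 329 FPKM and held 70.6% of the list. GH3 hormone-conjugating enzymes gave 2 of 10, with GH3.5 at 48.0 FPKM. 12-oxophytodienoate reductases, among them the jasmonate-synthesis enzyme OPR7 at 35.9 FPKM, gave 2 of 8.

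The same was asked without chosen lists, by grouping named rows whose descriptions match. Of 214 such groups with at least 10 rows, 7 had at most 10% of their rows detected, and 5 had none: allergen V5/Tpx-1 related proteins (14 rows), prolamins (20 rows), leucoanthocyanidin dioxygenases (10 rows), EF-hand-like proteins (10 rows) and rows described by the chalcone and stilbene synthase N-terminal domain (10 rows). The groups follow the wording of the description, so a protein family can be split across them. Rows worded as EF-hand type gave 16 of 21 detected and those worded as EF hand 8 of 15. At the other end 19 groups had 90% or more detected. All 11 FAR1 rows, of a family of light-signalling factors, and all 10 mitochondrial carrier rows were detected, as were 45 of 49 rows with a nucleotide-binding alpha-beta plait, the fold of many RNA-binding proteins. Large receptor and cytochrome P450 families lay below the background: 91 of 216 NB-ARC rows, of immune receptors, were detected, with OS11G0605100 highest at 41.9 FPKM, and 70 of 178 cytochrome P450 rows, with OS10G0525000 at 217 FPKM. Rows worded as RING/FYVE/PHD zinc fingers, many of which mark proteins for destruction, lay above it with 143 of 183. Their highest row, OS03G0351800, stood at 85.5 FPKM. The RING-type and C3HC4 type zinc finger wordings lay below it, with 23 of 50 and 12 of 32 rows. Rows worded as ankyrin repeat gave 7 of 35, yet OS11G0251400 among them stood at 271 FPKM. The ankyrin repeat containing protein wording gave 17 of 25 rows and the ankyrin wording 10 of 13.

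**Figure D5:**
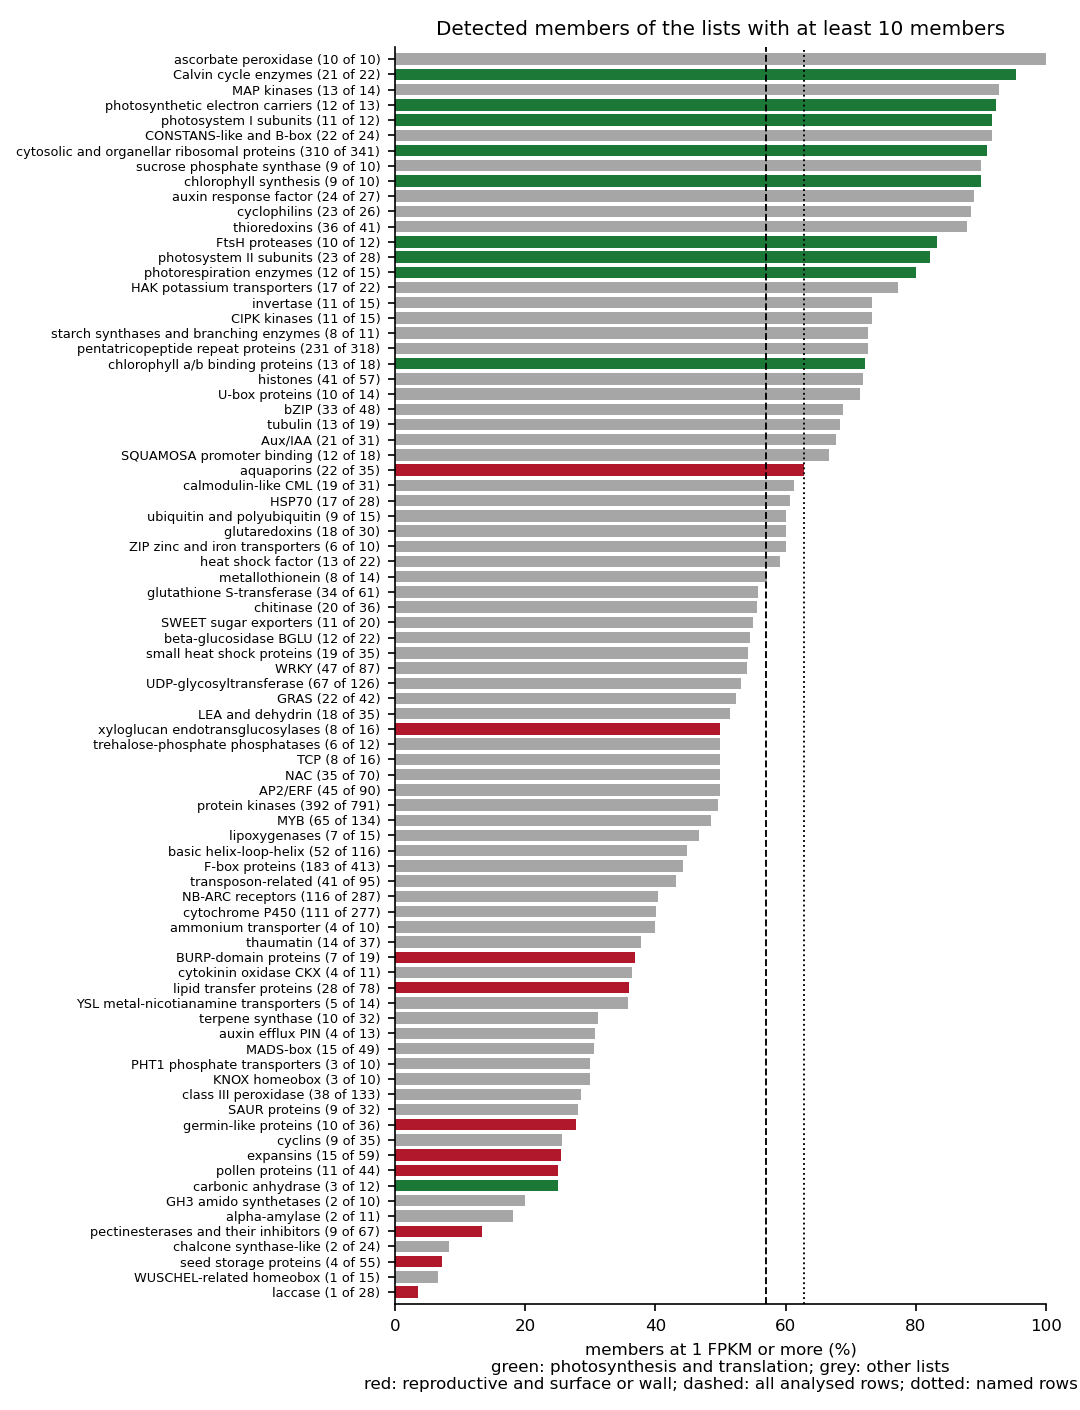
Share of members at 1 FPKM or more (x axis, percent) in the 82 lists with at least 10 members, with the counts at left and a dashed line at the 56.9% of all analysed rows and a dotted line at the 62.9% of named rows. Green bars (photosynthesis and translation) lie above both lines except carbonic anhydrase with 3 of 12, and the laccases lie lowest with 1 of 28.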

How the data were processed

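Read and mapping numbers come from the deposited summary sheet: 82145342 reads before trimming, 56985672 after it with 68.4% of bases kept, and an alignment rate of 96.7%. The authors aligned reads with TopHat 2.0.12 and quantified genes as FPKM with Cufflinks and Cuffdiff 2.2.1 on IRGSP-1.0 with Ensembl Plants release 23, per the file headers. How strand was set in the quantification is not given in the sources used here. From these FPKM values, with no pseudocount and no count model, counts past thresholds, sums, shares, effective numbers and clusters of neighbouring rows were computed with Python 3.11.15, NumPy 2.4.6, pandas 2.3.3 and matplotlib 3.10.9, and checked on simulated data. With 1 library there is no replicate, no test and no error.

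The 113 gene lists were built by patterns on symbols and descriptions that the table carries and corrected by name. Members and lists were chosen with earlier results of these data known. The genes named are the 30 highest with an informative name, up to 3 of the highest members of each list described, all members of 8 small families and the highest row of the large description groups named. Others were chosen after their values were seen. Of the analysed rows 15662 share their locus with another row of the table, short RNA rows included, so reads may be divided. Coordinates are those deposited on IRGSP-1.0, and whether starts count from 0 or 1 is not given in the sources used here. A reference gene table for another assembly was not used.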

Additional observations from a re-analysis of the deposited data

How the results depend on the processing

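The number of rows detected, 21437, moved to 11648 at a threshold of 10 FPKM, to 12649 with named rows only and to 12440 without rows that share a locus. It was 27092, 23500 and 15267 at 0.1, 0.5 and 5 FPKM. The rows that make up 50% of the summed FPKM went from 827 to 437 with named rows only and to 442 without rows that share a locus. No rows encoded in organelles or for ribosomal RNA are among those analysed, so leaving them out gave no value. The photosynthesis share of 15.9% was 22.2% of the sum of named rows, 17.1% without shared loci and 15.1% without CAB2R. The description groups with few detected rows went from 7 to 2 at 0.1 FPKM and to 33 at 5 FPKM, to 28 with groups of at least 5 rows and to 1 with at least 20. Detected members of all lists together were 3641, 3059 and 1823 at 0.1, 0.5 and 5 FPKM against 2732. The median share of the highest member was 44.2% without shared loci against 38.6%. Over single lists, values moved by over 1.5 times as follows. The highest member's share moved in 24 of 103 lists without shared loci. The share of summed FPKM moved in 51 of 113 without shared loci, in 72 of 113 without the highest member and in 0 of 113 with named rows only. The detected count moved in 24, 5 and 39 of 113 at 0.1, 0.5 and 5 FPKM. Added after seeing the data, the background of named rows gave 45 lists above it against 56, 6 against 7 transcription factor lists and 22 against 16 silent lists, and the median share without lists of different proteins was 39.9%. No paired analysis was possible because 1 library was analysed.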
